A study of Mus musculus with 2 samples.

Results

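The Ifit genes and their companions Rsad2, Isg15, Cmpk2, Ddx60, Slfn4 and Usp18 are among the genes that type I interferon raises most. Here 10 of the 32285 genes in the files, Ifit1, Ifit2, Ifit3, Ifit3b, Rsad2, Isg15, Cmpk2, Ddx60, Slfn4 and Usp18, were followed through the cells of 2 mouse pancreatic tumors. They were chosen from earlier results on these same cells, in which a set of neutrophils stood out by these transcripts, so their levels below are a description and none was tested. Each tumor grew in the pancreas of 1 mouse from KPC cells, a line from a genetic mouse model of pancreatic ductal cancer, and was dissociated and sequenced by droplet single-cell RNA-seq. The cells carried either the control hairpin (KPC-shV) or the hairpin against Zeb1 (KPC-shZEB1), and the study describes the tumors as treated with gemcitabine, which the labels do not mention. The hairpin lines were made with lentivirus and drug selection, only the grafted cells carried a hairpin, and the mice of the study were grafted at 4 to 6 weeks of age, with no strain given for these 2.

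There was 1 tumor per group, so mouse, tumor, library and group cannot be told apart, and no comparison between the libraries has a replicate check. Values are given first for the library labelled KPC-shV and then for the library labelled KPC-shZEB1, and a ratio is the second over the first. Levels are UMIs of a gene per 1000000 UMIs of the cells summed (CPM). A UMI marks 1 captured transcript, so no scaling by gene length was needed. Ranges in parentheses are exact 95% intervals that cover counting error only. Filtering left 11412 and 12128 cells with 101204850 and 119604744 UMIs, of which 68205 and 50899 were UMIs of the 10 genes, and 36 of the cell barcodes kept occurred in both libraries. Zeb1 itself was not lower where the label says so. In tumor-like cells it stood at 166 and 190 CPM (ratio 1.14, 1.10–1.18), so every direction below is between 2 labelled libraries. Zeb1 stood at 1265 and 1428 CPM in T-like cells, and the part of other cells' RNA in the tumor-like value was not tested. The study shows a knockdown efficiency for Zeb1 in KPC cells, which was not measured here.

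Type I interferons (interferon beta and the interferon alphas) bind one receptor on almost every cell, and the kinases behind it activate transcription factors that bind a short DNA element, the interferon-stimulated response element (ISRE). The genes followed here carry out and limit that response. Ifit1, Ifit2, Ifit3 and Ifit3b encode tetratricopeptide proteins that bind viral RNA or one another, Rsad2 encodes viperin and Cmpk2 its neighbor nucleotide kinase, Isg15 a ubiquitin-like modifier, Ddx60 a helicase-like antiviral factor, Slfn4 a schlafen protein of myeloid cells, and Usp18 the protease that removes ISG15 and also dampens the receptor.

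The 10 genes lie at 6 places of the mouse genome (GRCm38, 1-based, GENCODE M21), and all are protein coding. The 4 Ifit genes sit head to tail on the plus strand of chromosome 19 within 99316 bases, in the order Ifit2 (34550694–34576419), Ifit3 (34583531–34588731), Ifit3b (34607970–34613401) and Ifit1 (34640871–34650009). Rsad2 (chromosome 12, 26442746–26456452, minus strand) and Cmpk2 (chromosome 12, 26469204–26479837, plus strand) point away from each other with 12751 bases between them. Isg15 lies on chromosome 4 (156199424–156200818, minus strand), Ddx60 on chromosome 8 (61928087–62038244, plus strand), Slfn4 on chromosome 11 (83175186–83190216, plus strand) and Usp18 on chromosome 6 (121245906–121270917, plus strand). Over the 1697 aligned bases of their longest coding transcripts Ifit3 and Ifit3b were 98.0% identical, and over their last 500 bases, nearer to where this 3′ assay reads, 58.7% of 429 aligned bases were. Reads from the pair may have been lost or split between the copies, so the level of each is uncertain.

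The stretches just before the starts of 7 genes are shown, the 6 in which the ISRE core was found and Slfn4, the most abundant member in the library labelled KPC-shV, in which it was not. They are the 200 bases before the RefSeq start, read 5′ to 3′ on the gene's own strand (GRCm38.p6), and capitals mark matches to the ISRE core, GAAA followed by any 2 bases and GAAA again, searched on both strands (read from the other strand it is TTTC, any 2 bases and TTTC). The windows are chr19:34640689-34640888 for Ifit1, chr19:34583329-34583528 for Ifit3, chr19:34607757-34607956 for Ifit3b, chr4:156200819-156201018 (minus strand) for Isg15, chr12:26456453-26456652 (minus strand) for Rsad2, chr8:61927887-61928086 for Ddx60 and chr11:83174986-83175185 for Slfn4.
Ifit1: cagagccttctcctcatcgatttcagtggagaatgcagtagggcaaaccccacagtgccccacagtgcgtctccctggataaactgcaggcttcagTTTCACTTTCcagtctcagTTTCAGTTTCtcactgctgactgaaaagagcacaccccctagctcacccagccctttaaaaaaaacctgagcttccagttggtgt
Ifit3: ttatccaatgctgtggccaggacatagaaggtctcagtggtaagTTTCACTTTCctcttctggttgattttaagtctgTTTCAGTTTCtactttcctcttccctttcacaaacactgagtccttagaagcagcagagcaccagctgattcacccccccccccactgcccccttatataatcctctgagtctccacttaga
Ifit3b: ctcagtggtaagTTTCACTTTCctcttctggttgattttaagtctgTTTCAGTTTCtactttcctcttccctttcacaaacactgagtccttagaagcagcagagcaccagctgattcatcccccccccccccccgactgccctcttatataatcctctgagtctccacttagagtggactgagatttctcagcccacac
Isg15: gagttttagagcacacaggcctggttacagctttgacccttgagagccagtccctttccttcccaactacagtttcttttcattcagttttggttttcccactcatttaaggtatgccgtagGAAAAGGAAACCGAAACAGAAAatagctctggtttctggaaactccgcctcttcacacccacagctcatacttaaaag
Rsad2: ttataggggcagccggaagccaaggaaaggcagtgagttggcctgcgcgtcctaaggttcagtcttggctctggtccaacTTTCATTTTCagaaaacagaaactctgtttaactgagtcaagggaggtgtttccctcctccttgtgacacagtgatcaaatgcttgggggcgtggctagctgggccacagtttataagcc
Ddx60: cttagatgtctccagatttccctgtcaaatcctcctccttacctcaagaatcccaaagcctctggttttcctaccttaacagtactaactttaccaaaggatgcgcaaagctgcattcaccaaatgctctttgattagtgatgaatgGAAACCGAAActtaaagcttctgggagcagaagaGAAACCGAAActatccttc
Slfn4: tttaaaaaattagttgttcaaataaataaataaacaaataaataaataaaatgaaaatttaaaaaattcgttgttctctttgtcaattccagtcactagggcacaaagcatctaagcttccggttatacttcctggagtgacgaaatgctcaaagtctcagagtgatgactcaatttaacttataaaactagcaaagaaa
Of the 10 genes 9 had an entry in the promoter table, with 10 windows of 300 bases (250 before and 50 after the start). A core was found in 6 of the 10 windows, those of Ifit1, Ifit3, Ifit3b, Rsad2, Isg15 and Ddx60, whereas 3.44% of the 32851 windows of all genes held one. Isg15 held 3 overlapping matches that together span 78 to 57 bases before the start. The paired matches of Ifit3 and Ifit3b carry the same letters, as the windows of the 2 copies were 99.2% identical where they aligned, and only their distance from the start differs. Ifit2, Cmpk2 and Slfn4 had no match in their windows, which says only that these letters are not in these windows. The core of the element that interferon gamma uses (GAS, TTCNNNGAA) was found in 1 of the 9 genes, Ifit2, and in 8.30% of all windows.

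To see which cells carried these transcripts, UMIs were summed over 9 classes of cells named from marker genes. In both libraries the 10 genes were highest in granulocyte-like cells. Their summed level there was 2014 CPM (1996–2033) and 1659 CPM (1638–1681), 5.54- and 4.05-fold above the next class, monocyte-macrophage-like cells, at 364 and 410 CPM. Granulocyte-like cells held 67.6% and 45.9% of all UMIs of the 10 genes but only 22.6% and 11.8% of all UMIs. The other classes were fibroblast-like cells (295 and 227 CPM), tumor-like cells (248 and 164), endothelial-like cells (205 and 261), T-like cells (206 and 154), NK-like cells (206 and 145), dendritic-like cells (174 and 173) and, lowest in both libraries, B-like cells (105 and 97.6). The counting intervals of T-like, NK-like and endothelial-like cells overlapped in the library labelled KPC-shV, so their order there is not set. The NK-like class also held T cells, as 46.4% and 40.2% of its cells had a Cd3e UMI.

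**Figure D1:**
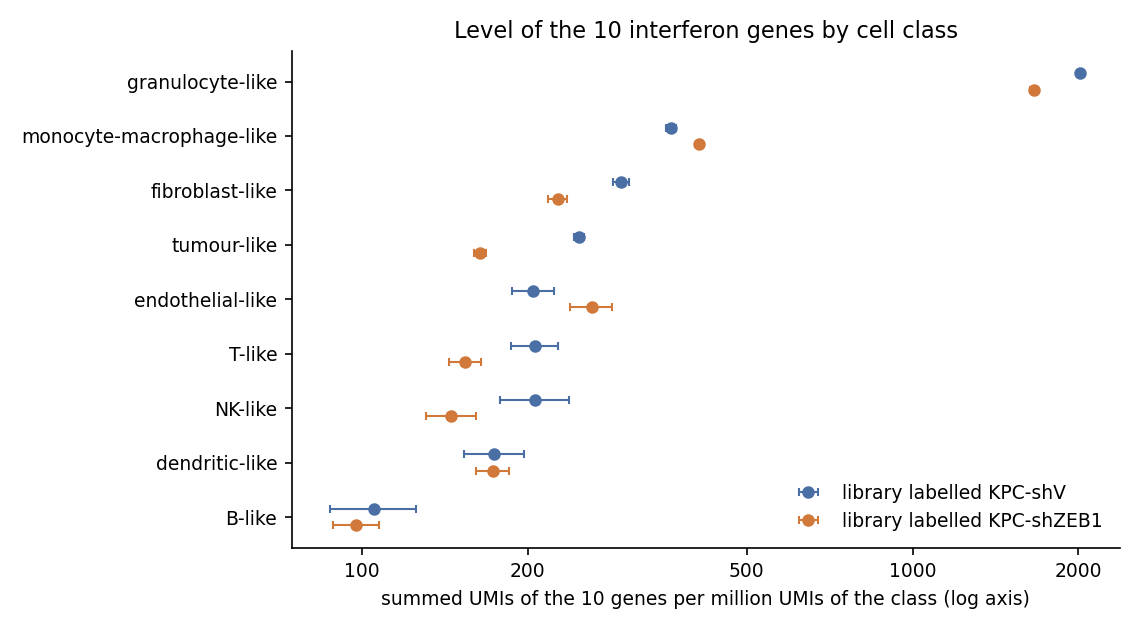
Summed level of the 10 genes in CPM (log axis) in 9 cell classes, one point per library with the exact 95% Poisson interval of the count. Granulocyte-like cells lie at 2014 and 1659, monocyte-macrophage-like cells at 364 and 410, and B-like cells lowest at 105 and 97.6.

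Each of the 10 genes was highest in granulocyte-like cells in both libraries, but the margin differed by gene. Slfn4 was the most restricted, at 652 and 447 CPM in granulocyte-like cells, 14.8- and 22.7-fold over the next class. Rsad2 stood at 516 and 339 CPM, 4.22- and 2.35-fold over monocyte-macrophage-like cells. Isg15 stood at 425 and 529 CPM, 3.98- and 3.75-fold over monocyte-macrophage-like cells. Monocyte-macrophage-like cells thus came second for both of these, while other members had their second place elsewhere. Ifit1 (85.3 and 71.0 CPM in granulocyte-like cells) came second in fibroblast-like cells (25.8 and 17.0). Ifit2 (36.8 and 40.2) came second in endothelial-like cells (19.9 and 27.6), with the smallest margins of the Ifit genes, 1.85- and 1.46-fold. Ddx60 (117 and 83.7) came second in T-like cells (37.6 and 27.0), and Usp18 (55.7 and 36.2) in dendritic-like cells (27.1 and 15.3). Ifit3b (19.8 and 20.4) came second in fibroblast-like cells (6.15 and 4.88). Ifit3 (71.4 and 70.4) and Cmpk2 (35.7 and 22.8) had different classes in second place in the 2 libraries. In the library labelled KPC-shZEB1 endothelial-like cells were second for both. There the margin of Cmpk2 was the smallest of the 10 genes, 1.32-fold over endothelial-like cells (17.2 CPM, 33 UMIs). The counting intervals of these 2 classes overlapped, so its top place there is not set.

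In droplet data free RNA of an abundant cell type can be counted in other cells, so 8 granulocyte markers (S100a8, S100a9, Csf3r, Cxcr2, Retnlg, G0s2, Hdc and Mmp9) were measured beside the 10 genes. Their summed level in the other 8 classes was 3.14–5.37% and 2.38–3.08% of the granulocyte-like level, and none of the 8 was at 0 in any class. The 10 genes stood at 5.22–18.1% and 5.88–24.7% of their granulocyte-like level in the same classes. Slfn4 lay nearest to the markers, at 3.35–6.77% and 1.83–4.40%. Isg15 lay at 4.66–25.1% and 6.28–26.7%. In B-like cells the 10 genes stood at 5.22% against 3.14% for the markers and at 5.88% against 2.52%, and in dendritic-like cells at 8.64% against 5.37% and 10.4% against 2.75%. The ratio of Isg15 to Slfn4 was lowest in granulocyte-like cells, 0.652 and 1.18, and stood at 0.719 and 2.90 in B-like cells, 2.90 and 7.18 in monocyte-macrophage-like cells and 2.96 and 6.95 in fibroblast-like cells.

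The next question was whether all granulocyte-like cells carried these transcripts or a few carried most. At least 4 UMIs of the 10 genes were found in 35.5% (34.3–36.6) of 6875 granulocyte-like cells and in 30.5% (29.2–31.9) of 4573. At the edge of that cutoff, 539 and 390 cells had exactly 3 UMIs and 382 and 255 had exactly 4. The same share was 34.6% and 41.4% in monocyte-macrophage-like cells and 63.0% and 46.7% in fibroblast-like cells, but these cells were far deeper, with medians of 13286 and 14582 UMIs and of 29356 and 28145 UMIs against 3149 and 2888 in granulocyte-like cells. After each cell was thinned to 1000 UMIs, which every cell kept had, the share was 15.4% (14.6–16.3) and 11.7% (10.8–12.7) in granulocyte-like cells, 1.48% and 1.98% in monocyte-macrophage-like cells, 1.53% and 0.417% in tumor-like cells and 1.11% and 0.525% in fibroblast-like cells. At equal depth granulocyte-like cells thus stood above every other class. None of 289 and 1224 B-like cells, with medians of 3732 and 3417.5 UMIs before thinning, reached 4 UMIs then, which with a floor of 3 counts leaves room for shares up to 1.04% and 0.245%.

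The transcripts were spread unevenly over granulocyte-like cells. The 5% of these cells with the most UMIs of the 10 genes held 43.4% and 45.8% of them, whereas 24.9% and 27.1% of the cells had none. After thinning, the variance over cells was 9.30 and 9.96 times the mean, against 3.01 and 2.60 in monocyte-macrophage-like cells and 3.21 and 1.77 in tumor-like cells. At least 15 UMIs of the 10 genes in 1000 were found in 2.44% and 2.06% of granulocyte-like cells. The upper ends of the 2 libraries overlapped, with up to 208 and 180 such UMIs in a whole granulocyte-like cell.

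**Figure D2:**
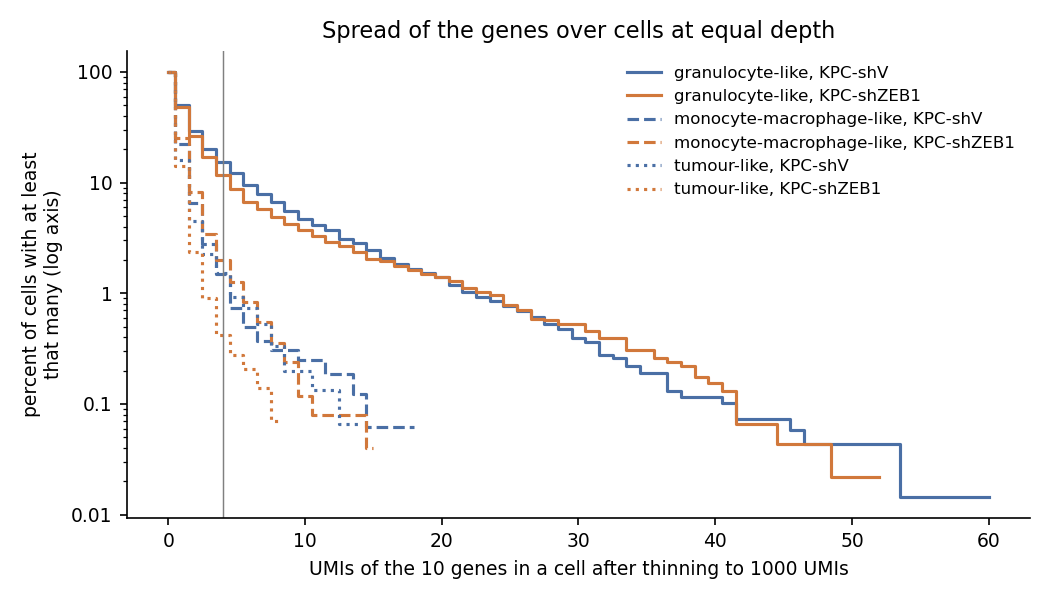
Percent of cells (log axis) with at least the given number of UMIs of the 10 genes after thinning to 1000 UMIs per cell, for 3 classes and both libraries, with a gray line at 4 UMIs. At the line granulocyte-like cells lie at 15.4% and 11.7%, monocyte-macrophage-like cells at 1.48% and 1.98% and tumor-like cells at 1.53% and 0.417%.

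Within granulocyte-like cells the genes were found together. Among thinned cells with an Ifit1 UMI (377 and 191 cells), the other 9 genes had 10.2 and 12.3 UMIs per cell, against 1.41 and 1.18 in cells without one. With Ifit3b, the least abundant member, the other genes had 12.2 and 14.5 UMIs in cells with a UMI and 1.79 and 1.48 in cells without. With Slfn4, found in 32.1% and 24.6% of thinned cells, the difference was smaller, 2.94 and 3.15 against 0.585 and 0.632. Over the 45 pairs of genes the correlation across cells (Pearson r of log2 of thinned UMIs plus 1) had a median of 0.25 and 0.31 and a range of 0.12–0.47 and 0.17–0.53, in 6875 and 4573 cells of 1 library each. The highest pair in the library labelled KPC-shV was Rsad2 with Ifit1 and the lowest Usp18 with Ifit3b. In monocyte-macrophage-like cells the median was 0.08 in each library and in tumor-like cells 0.09 and 0.05, at levels nearer to 0 UMIs per thinned cell. At least 5 different members were found in 3.96% (3.51–4.44) and 3.24% (2.74–3.79) of thinned granulocyte-like cells and in at most 0.435% of cells of the other classes in either library, and all 10 were found together in at least 1 thinned granulocyte-like cell of each library.

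Genes outside the 10 were then compared between granulocyte-like cells with 4 or more UMIs of the members and cells with fewer, within each library. The split used the members, so these values describe the cells it made, and the median depth was slightly higher in the first group (3393 against 3037 UMIs and 2983 against 2853). Other interferon-raised genes were among the 10 leading genes in both libraries. Genes entered the ranking and these counts only with at least 30 UMIs in the cells with 4 or more, the group where they could be high. Of the listed type I interferon targets that entered, 32 of 33 and 32 of 34 were at least 1.5-fold higher there. The shares of all non-member genes that entered were 2.58% and 3.02%. The median ratio of the listed targets was 3.64 and 2.86. Herc6, the ligase that attaches ISG15 in the mouse, stood at 327 against 27.3 CPM and at 321 against 37.6 CPM. Slfn5, another schlafen gene, stood at 371 against 55.8 CPM and 370 against 61.1 CPM, and Slfn3 at 28.9 against 4.09 and 17.5 against 3.15. Oasl1 stood at 179 against 28.2 CPM and 160 against 27.2 CPM. Trim30c, Ifi208 and Ifit1bl1, a further gene of the Ifit locus, were also among the 10 leading genes in both libraries. Irf7, the factor that amplifies interferon production, ranked lower with 93.5 against 20.2 CPM and 107 against 23.1 CPM. Of the receptor and kinase genes 0 of 7 were past 1.5-fold in each library, with median ratios of 0.995 and 0.987.

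In the library labelled KPC-shV not all leading genes were interferon genes. Camp, a granule protein of maturing neutrophils, stood at 52.7 CPM in cells with 4 or more UMIs and 3.16 CPM in cells with fewer, and Ngp, another granule protein, at 69.2 and 6.10 CPM. Neither was among the 10 leading genes in the library labelled KPC-shZEB1. In monocyte-macrophage-like cells the split was by depth as well (medians of 17466.5 against 11475.5 UMIs and 17515.5 against 12478.5). With genes entered by the same rule, 18 of 37 and 23 of 37 listed type I targets were past 1.5-fold higher. The shares of all non-member genes were 2.54% and 2.96%. Leading genes there were Retnla, A330040F15Rik and Slc1a2 in the library labelled KPC-shV and Nrip3, Ifnb1 and Ifit1bl1 in the library labelled KPC-shZEB1. Ifi208 and Slc1a2 were among the 10 in both.

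Ifnb1, which encodes interferon beta, had the most UMIs of the type I interferon genes. It had 35 and 70 UMIs in all cells kept, and 30 and 63 of them came from monocyte-macrophage-like cells, in 18 of 1618 cells (1.11%) and 26 of 2526 cells (1.03%). Up to 6 and 13 of the UMIs lay in 1 cell. Granulocyte-like cells, the class with most of the members' transcripts, had 3 Ifnb1 UMIs in each library. The 14 interferon alpha genes of the list had 1 and 4 UMIs in all cells. Ifnk, another type I interferon gene, had 14 and 9. An Ifnb1 UMI was found in 0 of 289 and 1 of 1224 B-like cells, which were shallower, and with a floor of 3 counts the first leaves room for a share up to 1.04% of cells with a UMI.

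Monocyte-macrophage-like cells with an Ifnb1 UMI also held more UMIs of the 10 genes. Granulocyte-like cells, with 3 such cells in each library, went both ways (6195 against 2013 CPM in cells without, and 774 against 1660 CPM). In monocyte-macrophage-like cells the summed level was 1569 and 2643 CPM in cells with Ifnb1 and 347 and 380 CPM in the rest, and 14 of 18 and 18 of 26 of the former had at least 4 member UMIs. These cells were deeper (medians of 19649.5 and 19461.5 UMIs against 13247 and 14494), and the part of depth was not tested. Single cells carried much of the level. Without the cell with the most member UMIs (293 and 309) it was 716 and 2116 CPM, and across the cells with Ifnb1 it ran from 94.6 to 12048 CPM (median 530.0) and from 50.9 to 16509 CPM (median 1268), against a median of 166 and 189 CPM over the cells without. Of the 10 genes 9 were higher in the cells with Ifnb1 in each library, and the share of all genes that were higher was not taken. Rsad2 stood at 736 against 114 CPM and 1442 against 127 CPM, Ifit2 at 158 against 17.5 and 319 against 20.4, and Cmpk2 at 121 against 7.17 and 92.0 against 6.95. Slfn4 was the exception, at 24.8 against 37.0 and 17.6 against 19.7 CPM.

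Between the libraries the 10 genes together were lower in granulocyte-like cells where the label is KPC-shZEB1, at 1659 against 2014 CPM (ratio 0.824, 0.811–0.837). A gene was counted as past the fold when its ratio was at least 1.5 in either direction with at least 30 UMIs over both libraries. By that rule 3 of the 10 were lower, against 3.41% of all genes, and none was higher, against 24.2%. The 3 were Cmpk2 (35.7 and 22.8 CPM, ratio 0.639), Usp18 (55.7 and 36.2 CPM, 0.649) and Rsad2 (516 and 339 CPM, 0.657). Slfn4 (0.685, 0.665–0.706), Ddx60 (0.715, 0.667–0.766) and Ifit1 (0.832, 0.770–0.899) were lower by less. Ifit3 and Ifit3b were near 1 (0.986, 0.910–1.07 and 1.03, 0.886–1.20), Ifit2 was at 1.09 (0.981–1.22), and Isg15 was higher (1.24, 1.21–1.28). In all 7 of 10 lay below 1, against 24.7% of all genes, with a median log2 ratio of −0.37. All genes with at least 50 CPM in these cells had a median log2 ratio of 0.08, and those with at least 30 UMIs one of 0.28. The 8 granulocyte markers stood at 36591 and 25236 CPM in the same cells, and their part in the difference was not tested.

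Because the granulocyte-like class held 6 clusters in unequal shares, the same ratio was taken within each. The clusters had been made without the members and the other listed interferon genes. A cluster led by Abca13, Gpc3, Car4, Mmp9 and Siglecf held the least of the 10 genes among the larger clusters, 749 and 736 CPM (ratio 0.983, 0.936–1.03), and made up 15.2% and 35.3% of the class. A cluster led by G0s2, Stfa2l1 and Cxcr2 held 2375 and 2391 CPM (1.01, with an interval that held 1) with shares of 37.5% and 38.9%. A cluster led by Cstdc4, Prok2 and Cxcl3 held 2251 and 2006 CPM (0.891, 0.860–0.922), and its share was 34.2% and 13.3%. The level thus differed by less within each of these 3 clusters than over the class, while their sizes differed. A smaller cluster led by Prok2, Retnlg and Mgam went the other way, at 1675 and 2190 CPM (1.31, 1.22–1.40). An alternative chosen after the data were seen gave each cluster the same share of UMIs in both libraries. The summed level was then 1810 and 1812 CPM and the ratio 1.00. That average included a cluster of 7 and 296 cells at 358 and 1635 CPM (4.57, 2.31–10.6). The ratio at equal shares without it was not computed.

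At equal shares the members still differed from one another. Isg15 (401 and 523 CPM), Ifit3 (ratio 1.29), Ifit2 (1.29) and Ifit3b (1.28) had the highest ratios, Ifit1 was at 1.03, and Usp18 (0.922), Rsad2 (0.915), Ddx60 (0.871), Slfn4 (0.846) and Cmpk2 (0.741) the lowest. In the G0s2 and Cxcr2 cluster Isg15 stood at 554 and 783 CPM and Rsad2 at 563 and 445 CPM. In the Siglecf cluster Isg15 stood at 256 and 322 CPM and Slfn4 at 216 and 142 CPM. The cluster of 7 and 296 cells was led by G0s2, Abca13 and Cxcr2, with the acinar gene Pnlip also among its leading genes. Leaving it out left the ratio of the class as summed at 0.824.

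**Figure D3:**
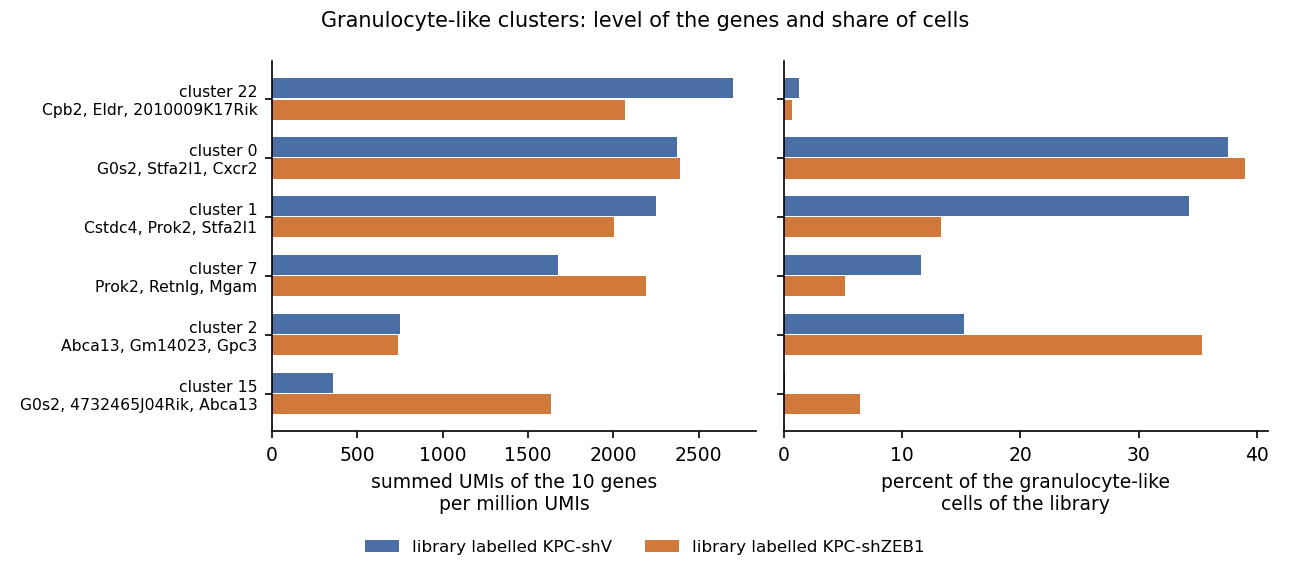
Left, summed level of the 10 genes in CPM in the 6 granulocyte-like clusters, named by leading genes, and right, the percent of granulocyte-like cells in each, for both libraries. The cluster of Abca13, Gm14023 and Gpc3, which also holds Siglecf, lies at 749 and 736 on the left and at 15.2% and 35.3% on the right, and the bar of cluster 15 for the library labelled KPC-shV rests on 7 cells.

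In monocyte-macrophage-like cells the summed level was slightly higher in the library labelled KPC-shZEB1, 410 against 364 CPM (ratio 1.13, 1.10–1.16). Only Ifit3b was past 1.5-fold higher (1.87 and 3.00 CPM, 1.60, 1.12–2.32), against 10.3% of all genes, and only Slfn4 was past it lower (36.8 and 19.7 CPM, 0.534, 0.484–0.589), against 2.26%. Isg15 (107 and 141 CPM, 1.32), Ifit1 (11.8 and 15.2, 1.28), Ifit2 (19.4 and 24.3, 1.25) and Rsad2 (122 and 144, 1.18) were higher with intervals above 1, and Ifit3, Ddx60, Usp18 and Cmpk2 had intervals that held 1. The difference lay unevenly over the clusters. In a cluster led by F13a1 and Lyve1, genes of resident macrophages, the summed level was 457 and 590 CPM (1.29, 1.23–1.35), with 9 of the 10 genes higher. The share of all genes was not taken by cluster, and over the whole class 41.6% lay below 1. In one led by Chil3 and Ccr2, genes of recruited monocytes, it was 341 and 425 CPM (1.25, 1.17–1.32). In the largest, led by Mmp12 and Dcstamp, it was 354 and 364 CPM (1.03, 0.988–1.07).

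In tumor-like cells 9 of the 10 genes lay below 1, against 44.6% of all genes, and 6 were past 1.5-fold lower, against 4.54%. The summed level was 248 and 164 CPM (0.660, 0.638–0.682). Slfn4 (44.1 and 19.2 CPM, 0.435) and Ifit3 (20.8 and 9.13 CPM, 0.439) had the lowest ratios, followed by Rsad2 (52.6 and 29.1, 0.554), Ifit3b (4.23 and 2.37, 0.560), Ifit1 (14.2 and 7.96, 0.562) and Cmpk2 (12.1 and 7.93, 0.654). Isg15 was the member above 1, at 45.1 and 47.5 CPM (1.05, 0.982–1.13), and Ifit2 was next to 1, at 6.36 and 6.32 CPM (0.993, 0.819–1.20). The intervals of both held 1. Few cells carried much of the sum. In the library labelled KPC-shV 1 tumor-like cell had 492 UMIs of the 10 genes and the top 5% of cells held 52.7% of them, against 36.4% in the other library. Without the 1% of cells with the most such UMIs the ratio was 0.802 (0.772–0.834). It was 0.603 (0.575–0.633) in the Epcam-led cluster and 0.632 (0.595–0.670) in the cluster led by Prg4 and Grem1. In a cluster of 319 and 320 cells with few UMIs (medians of 2189 and 2260) it was 1.02 (0.846–1.23), and in a Ralyl-led cluster of 10 and 231 cells 0.593 (0.465–0.767). The level of the granulocyte markers in tumor-like cells was 1328 and 628 CPM, and its part in the difference was not tested.

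Fibroblast-like cells resembled tumor-like cells in direction, with 295 and 227 CPM (0.768, 0.729–0.810) and 7 of the 10 genes past 1.5-fold lower, against 6.24% of all genes. Slfn4 was again lowest (29.0 and 13.5 CPM, 0.467), and Isg15 again the only member above 1 (85.7 and 94.0 CPM, 1.10, 1.00–1.20). In T-like cells, where 8 members had enough UMIs, 4 were past 1.5-fold lower against 3.57% of all genes. Usp18 was the lowest at 17.3 and 8.65 CPM (0.501), and Ifit3 had an interval that held 1 (0.612, 0.335–1.15). There 1, Ifit2, was past it higher (8.64 and 13.4 CPM, 1.55, 0.910–2.80) against 10.3%. In NK-like cells 2 of 5 were past it lower against 5.5%, Slfn4 (39.4 and 12.5 CPM) and Rsad2 (33.0 and 19.5). In dendritic-like cells it was 4 of 8 against 6.12%, of which Ifit1 and Ddx60 had intervals that held 1, while Isg15 was past 1.5-fold higher (52.8 and 96.1 CPM, 1.82, 1.43–2.34) against 10.9%. In B-like cells only Slfn4, 1 of 5, was past 1.5-fold lower against 3.87%, and Isg15 was past it higher (19.8 and 33.2 CPM, 1.68, 1.08–2.73) against 13.4%. Endothelial-like cells (115 and 84) were the class with the highest ratio, 205 and 261 CPM (1.28, 1.13–1.45), with Ifit3, Isg15 and Cmpk2, 3 of 9, past 1.5-fold higher against 12.7% of all genes and Slfn4 past it lower (29.4 and 14.1 CPM, 0.479) against 5.46%.

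Across the classes the members fell apart most at Isg15 and Slfn4. Slfn4 had a ratio below 1 in each of the 9 classes, from 0.262 in dendritic-like cells to 0.685 in granulocyte-like cells. Isg15 had a ratio above 1 in 8 of the 9, the exception being T-like cells (67.1 and 54.3 CPM, 0.809, 0.659–0.999). Outside granulocyte-like cells Slfn4 stood at 3.35–6.77% and 1.83–4.40% of its granulocyte-like level, and the summed granulocyte markers at 3.14–5.37% and 2.38–3.08% of theirs. The CPM of these markers was also lower in the library labelled KPC-shZEB1 in every class, and its part in the Slfn4 ratios was not tested.

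**Figure D4:**
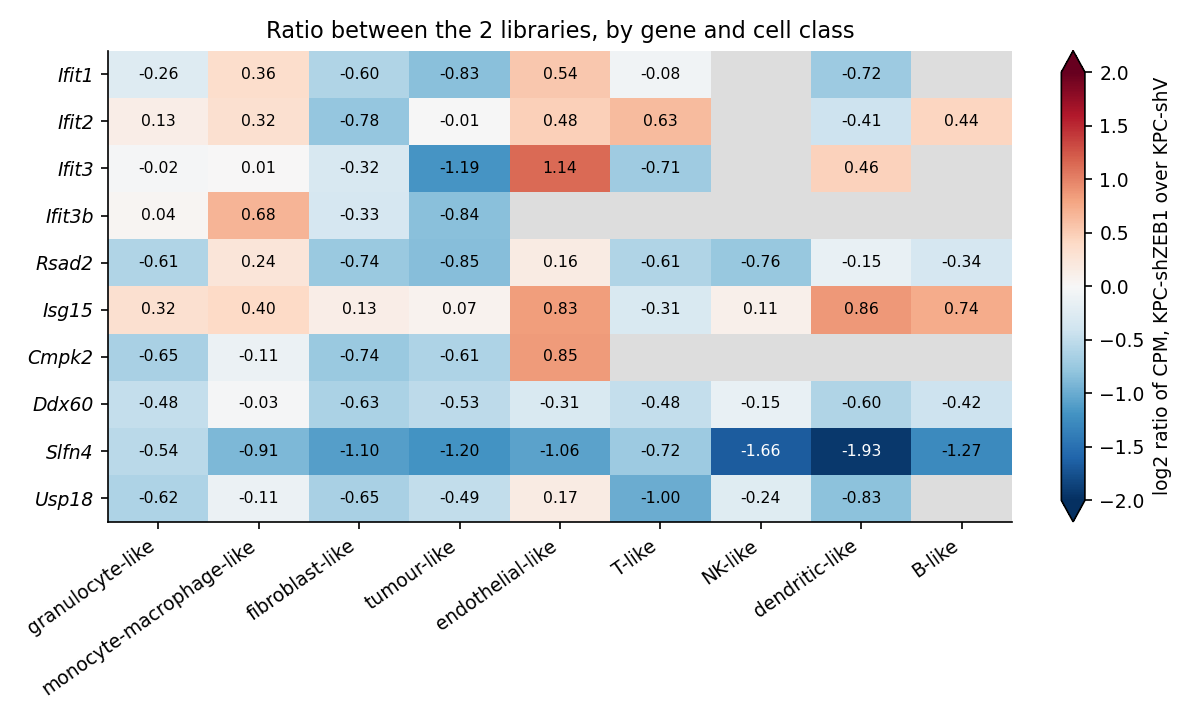
The log2 ratio of CPM, library labelled KPC-shZEB1 over library labelled KPC-shV, for each of the 10 genes (rows) in 9 cell classes (columns), red for higher, blue for lower and gray for fewer than 30 UMIs. The Slfn4 row is blue throughout, from −1.93 to −0.54, and the Isg15 row is at or above 0.07 in all classes but T-like cells (−0.31).

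The other genes of the interferon pathway were read by the same rule in the 3 largest classes. Among 37 other genes that type I interferon raises (38 of 40 were in the files), 7 were past 1.5-fold higher and 1 lower in granulocyte-like cells, 0 and 0 in monocyte-macrophage-like cells, and 5 and 0 in tumor-like cells, with median log2 ratios of 0.02, 0.14 and 0.07. Of all genes 24.2%, 10.3% and 12.3% were past it higher in these classes and 3.41%, 2.26% and 4.54% past it lower. The list's shares lay near or below these. The most abundant of them, Ifitm3, a membrane protein that blocks viral entry, stood at 750 and 784 CPM in granulocyte-like cells (1.04, 1.02–1.07). Oasl2 stood there at 438 and 446 CPM (1.02) and Trim30a at 435 and 399 CPM (0.917). Past 2-fold higher in granulocyte-like cells were, among others, Ms4a4c (ratio 3.61, 2.52–5.26) and Gbp3 (25.2 and 67.4 CPM, 2.67), of which Gbp3 is also raised by interferon gamma. In tumor-like cells past 2-fold higher were Phf11b (2.68 and 6.41 CPM, 2.39), Ms4a4c (2.02 and 4.62, 2.29) and Gbp3 (24.7 and 51.4, 2.08).

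Genes that interferon gamma raises most differed in the opposite direction to most of the 10 in granulocyte-like and tumor-like cells. All 12 were past 1.5-fold higher in granulocyte-like cells (24.2% of all genes), 10 of 12 in monocyte-macrophage-like cells (10.3%) and 11 of 12 in tumor-like cells (12.3%), with median log2 ratios of 1.40, 0.82 and 1.22 against −0.37, 0.13 and −0.72 for the 10 genes. Markers of lymphocytes differed in the same direction. A Cd3e UMI was found in 0.567% and 1.73% of granulocyte-like cells and in 2.99% and 8.21% of tumor-like cells, B-like cells made up 2.53% and 10.1% of all cells, and the part of other cells' RNA in the list's ratios was not tested. In granulocyte-like cells Cd74, the invariant chain of MHC class II, stood at 252 and 863 CPM (3.42). Gbp2, a guanylate-binding protein, stood at 304 and 695 CPM (2.28) and Gbp5 at 127 and 338 CPM (2.66). In tumor-like cells Cxcl9, a chemokine for T cells, stood at 271 and 450 CPM (1.66) and Ido1, which degrades tryptophan, at 11.1 and 28.0 CPM (2.53). Ifng itself had 478 and 1625 UMIs, of which T-like cells held 69.7% and 66.3%, in 53 of 290 and 159 of 950 of these cells, with up to 50 and 209 UMIs in 1 cell. NK-like cells held 50 and 262 of its UMIs.

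**Figure D5:**
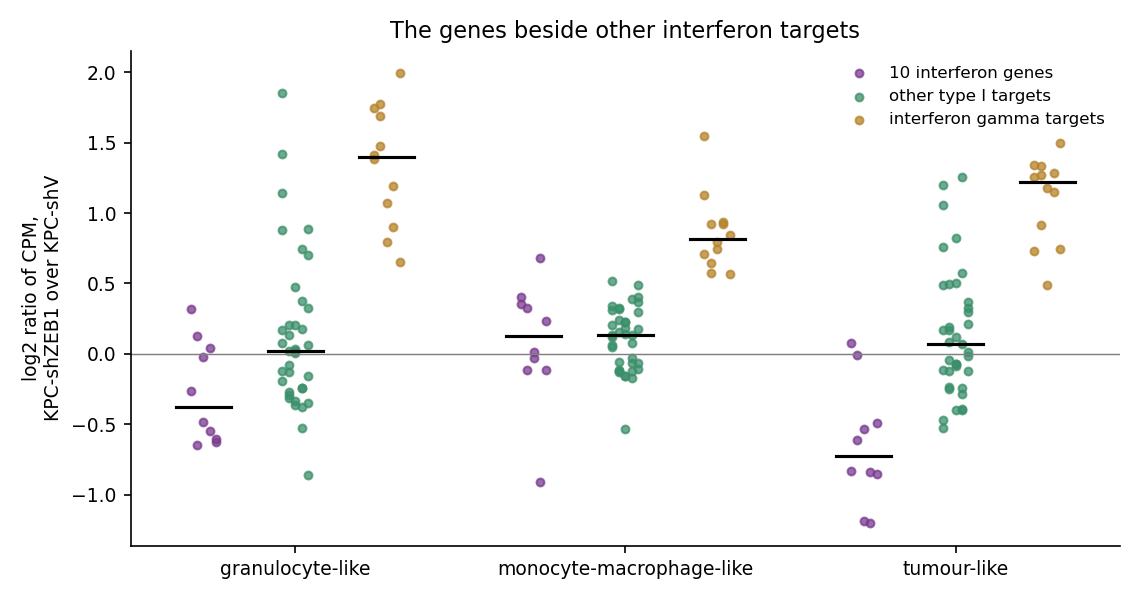
The log2 ratio of CPM, library labelled KPC-shZEB1 over library labelled KPC-shV, with 1 point per gene with at least 30 UMIs and a black bar at the median, for the 10 genes, the other type I targets and the interferon gamma targets in 3 classes. In granulocyte-like cells the medians are −0.37, 0.02 and 1.40, and in tumor-like cells −0.72, 0.07 and 1.22.

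Few other parts of the pathway were past 1.5-fold. None of the 7 receptor and kinase genes was past 1.5-fold higher in any of the 3 classes. Ifnlr1, a receptor chain for interferon lambda, was past it lower in granulocyte-like cells (14.5 and 9.37 CPM, 0.646), 1 of 7 against 3.41% of all genes. Ifnar2, a chain of the type I receptor, stood at 192 and 206 CPM in granulocyte-like cells (1.07, 1.02–1.12), and Ifnar1, the other chain, at 81.7 and 85.9 CPM (1.05). Among nucleic acid sensors 3 of 14 were past 1.5-fold higher in granulocyte-like cells, 0 of 15 in monocyte-macrophage-like cells and 1 of 14 in tumor-like cells, against the same 24.2%, 10.3% and 12.3% of all genes. Tmem173, which encodes STING, stood at 8.03 and 19.5 CPM in granulocyte-like cells (2.43, 2.01–2.94), and Tlr7 at 1.01 and 2.14 CPM in tumor-like cells (2.12, 1.40–3.27). Of the 4 enzymes of ISG15 attachment only Uba7, which activates ISG15, was past 1.5-fold. It stood at 9.95 and 15.8 CPM in granulocyte-like cells and 5.59 and 8.86 CPM in tumor-like cells, against 24.2% and 12.3% of all genes past it higher. Of the 8 negative regulators only Socs3 was past 1.5-fold lower in tumor-like cells (239 and 152 CPM, 0.635), against 4.54% of all genes. In granulocyte-like cells Usp18, itself one of the 10, was the only one past 1.5-fold lower, against 3.41%. Sh2b3 was the only one past it higher there (12.8 and 20.2 CPM, 1.58, 1.33–1.86), against 24.2%.

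The genes whose level over the 9 classes and 2 libraries was most like the sum of the 10 were not interferon genes. Over these 18 points, which share 2 libraries and a single high class, Pearson's r of log2(CPM + 1) ran from 0.961 to 0.943 for Mapkapk2, Tlr4, Nfkbia, Sh2b2 and Grina, in that order, among 12634 genes ranked. F630028O10Rik, Gm36913, Tmem38b, Fpr3 and Cpeb2 followed with 0.937–0.941. The members, which are part of the sum, ran from rank 1 (Rsad2) to rank 403 (Cmpk2).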

How the data were processed

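Orthotopic tumors of 2 mice were measured, 1 library per group. Per the labels, libraries were made with the 10x 3′ kit, and the submitters' processing notes name Cell Ranger 7.0.1 and mm10. The authors deposited 1 matrix of UMI counts (whole numbers, not normalized) per library, with 12594 and 13271 barcodes. The counting of intron reads is not given in the sources used here. The 10 genes and all lists were chosen with earlier results of these data known.

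Cells with at least 500 genes, 1000–60000 UMIs and at most 15% mitochondrial UMIs were kept, and 301 and 319 cells with a Scrublet score above 0.2 (scanpy 1.11.5) were removed. Both libraries were clustered together (3000 variable genes without any listed interferon gene, 30 components, 20 neighbors, Leiden resolution 1, leidenalg 0.10.2), which gave 28 clusters named as "X-like" from marker genes. A cluster with mast cell markers beside Il17a and Il23r was left unnamed by a rule set after it was seen, as were 2 others, 78 and 124 cells in all. Plasmacytoid dendritic-like, acinar-like and mural-like cells, fewer than 50 per library, were not described.

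UMIs were summed per class and library. Intervals are exact (Poisson for CPM, conditional binomial for a ratio, Clopper-Pearson for a share), and no test was run. The ratio, its interval and the thinning were tested on simulated data. Median UMIs per cell were 3719 and 4260. The genes named were the 10 members, the 4 most abundant genes of a list and those past 2-fold with at least 30 UMIs, the 10 genes most like the members in pattern, and the 10 leading genes of cells with 4 or more member UMIs, from which the text gives a selection. Irf7 and Ifnlr1 were named after their values were seen. Promoter windows are from RefSeq (GRCm38.p6, chromosome 18 not used), gene positions from GENCODE M21, in which 32158 of the 32285 identifiers were found. A gene of the type I list is counted in the list totals and not reported here by name.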

Additional observations from a re-analysis of the deposited data

Results flagged for a closer look

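The summed level of the 10 genes went in opposite directions in different cell classes, and with 1 library per group the difference between classes was not tested. The ratio of the library labelled KPC-shZEB1 to the library labelled KPC-shV was above 1, with a counting interval above 1, in monocyte-macrophage-like cells (1.13) and endothelial-like cells (1.28). It was below 1, with an interval below 1, in granulocyte-like cells (0.824), T-like cells (0.746), NK-like cells (0.704), tumor-like cells (0.660) and fibroblast-like cells (0.768). The ratio of granulocyte-like cells was 1.002 with their clusters at equal shares in both libraries. No other rule for a closer look could be applied, as none of the groups has more than 1 library.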

How the results depend on the processing

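The 4 results followed here were recomputed under 16 to 19 alternatives each, of which those on cluster shares, on clusters almost only of 1 library, on the cluster with few UMIs and on the top tumor-like cell were chosen after the data were seen. No paired analysis was possible because each group has 1 library. The granulocyte-like ratio (0.824) was 0.867 as a mean over cells, 0.864 after thinning, 0.797 without the top 1% of cells, 0.778 relative to all genes with at least 50 CPM and 0.729 without Slfn4 and Isg15. It crossed 1 only with clusters at equal shares (1.002), which counted the cluster of 7 and 296 cells. The share of granulocyte-like cells with 4 or more UMIs (ratio 0.860) was 0.761 after thinning, 0.675 without Slfn4 and Isg15 and 0.989 with clusters at equal shares. The monocyte-macrophage-like ratio (1.13) was 1.08 with no doublets removed, 1.20 with the top 8% of doublet scores removed, 1.09 (0.989–1.21) after thinning, 1.18 without the top 1% of cells and 1.21 with the lowest class subtracted. The tumor-like ratio (0.660) was 0.689 with the top 8% of doublet scores removed, 0.777 with no upper UMI limit, 0.718 as a mean over cells, 0.802 without the top 1% of cells, 0.462 with the lowest class subtracted, 0.610 without Slfn4 and Isg15, 0.624 with clusters at equal shares, 0.685 without the cluster almost only of 1 library and 0.698 without the top cell. The other alternatives stayed within the counting intervals of the values reported. Beyond the changes whose construction shows it, the cause was not tested. Counts limit the lymphoid, dendritic-like and endothelial-like classes. At least 30 UMIs were reached by 8 members in T-like and dendritic-like cells, 5 in NK-like and B-like cells and 9 in endothelial-like cells.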
